A study of Rattus norvegicus with 2 samples.

Results

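Neuron-like cells were the 383 of 12243 kept cells that carried neuronal transcripts although the hippocampal suspension had been sorted for microglia. They were chosen by their measured values. A cell was kept if it showed 200 or more genes and if mitochondrially encoded genes gave no more than 20% of its unique molecular identifiers (UMIs, counted transcript molecules). It was called neuron-like when Stmn2, Tubb3, Dcx, Gap43, Stmn3, Map1b and Nsg2 together made up at least 0.3% of its UMIs, at least 3 of these 7 gate genes were detected, and C1qa, C1qb and C1qc together stayed under 0.8% of UMIs. The cells came from 2 single-cell RNA-sequencing libraries of rat (Rattus norvegicus) hippocampus on gestational day 20. One library was made from embryos exposed to dexamethasone, a synthetic glucocorticoid, before birth, and the other from control embryos, and each was a pool of 7 males. Strain, dose and days of exposure are not given in the sources used here. The dexamethasone library held 76 neuron-like cells among 4199 kept cells and the control library 307 among 8044. Each group is a single library, so no test between groups was possible, and library, batch and exposure cannot be told apart. Intervals are exact, at the 95% level, except those of a difference of 2 shares. The latter run between the extremes of the separate bounds and are wider. All cover counting error only.

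Late in gestation the hippocampus holds newborn neurons of several origins. Excitatory pyramidal and granule neurons are born in the local ventricular zone, pass through a stage with the proneural factors Neurod1, Neurod2 and Neurod6, and load glutamate into vesicles with transporters of the Slc17a family. Inhibitory interneurons arise in the ganglionic eminences under Dlx homeobox factors, migrate into the hippocampus, and make GABA with the decarboxylases encoded by Gad1 and Gad2. Cajal-Retzius cells come mostly from the cortical hem, settle at the surface and along the hippocampal fissure, and secrete reelin, which guides the migration of other neurons. All of them build axons from a shared set of tubulins, stathmins and growth cone proteins, which is what the gate reads.

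Neurod6, Neurod2 and Gad2 are among the genes used below to group the cells. The 250 bases before their starts are shown, from the RefSeq promoter table on the rat build GRCr8. On both strands 3 motifs were searched, the NeuroD E-box CAGATG, the homeodomain core TAATTA and the TATA box TATAAA, and matches are in capitals. No match overlapped another. Neurod6 (chr4:86180156-86180405, minus strand) held 2 E-box matches, Neurod2 (chr10:83824278-83824527, minus strand) held 1, and Gad2 (chr17:89671468-89671717, plus strand) held 0. The windows of Neurod1 and Dlx1, also used for grouping, held 0 matches of any of the motifs and are not shown. E-box matches were thus not shared by all the excitatory genes searched. The remaining genes used for grouping were not searched.
Neurod6: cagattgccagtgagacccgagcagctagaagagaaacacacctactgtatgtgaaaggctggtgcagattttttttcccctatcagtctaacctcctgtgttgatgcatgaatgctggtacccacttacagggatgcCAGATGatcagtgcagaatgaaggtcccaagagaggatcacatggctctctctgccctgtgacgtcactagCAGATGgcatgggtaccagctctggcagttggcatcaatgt
Neurod2: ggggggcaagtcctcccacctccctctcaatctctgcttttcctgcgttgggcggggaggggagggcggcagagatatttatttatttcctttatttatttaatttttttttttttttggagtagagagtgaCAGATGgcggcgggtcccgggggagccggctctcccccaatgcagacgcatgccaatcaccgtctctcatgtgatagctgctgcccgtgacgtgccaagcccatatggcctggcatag
Gad2: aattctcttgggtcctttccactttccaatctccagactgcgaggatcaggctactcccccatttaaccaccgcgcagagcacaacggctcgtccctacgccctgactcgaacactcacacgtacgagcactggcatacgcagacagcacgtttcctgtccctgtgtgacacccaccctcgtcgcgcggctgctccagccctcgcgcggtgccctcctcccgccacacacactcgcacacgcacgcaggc
No TAATTA or TATAAA was present in the 3 windows shown. Among 33469 promoters of the same length, 13.96% held the E-box letters, 4.86% the homeodomain core and 12.9% the TATA box. A match is a description of the letters and not a site of binding.

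The values that chose the cells can be given as a description. In neuron-like cells 1.44% of dexamethasone UMIs and 1.43% of control UMIs came from gate genes, against 0.00288% and 0.00576% in all other kept cells of the same libraries. All 7 gate genes were detected in 37 of the 76 dexamethasone cells and in 97 of the 307 control cells. C1q transcripts were absent from 24 and 69 of the cells, and made up 0.0237% and 0.116% of their UMIs, against 2.30% and 1.74% in the other kept cells. Near the gate limit, 1 dexamethasone cell and 7 control cells lay between 0.3 and 0.4%, and 4 and 3 cells with fewer gate transcripts lay between 0.2 and 0.3%. Near the C1q limit, 0 dexamethasone and 8 control cells lay between 0.6 and 0.8%, while 1 and 6 cells that met the gate lay between 0.8 and 1.0%. Exactly 3 gate genes were detected in 6 dexamethasone and 35 control cells inside the rule, and 2 dexamethasone and 24 control cells were left out with only 2 of them. In all, 6 dexamethasone and 13 control cells met the gate and were set aside for their C1q content. No doublet caller was run and no doublets were removed, so a neuron and a microglial cell in 1 droplet could stand on either side of that limit.

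**Figure D1:**
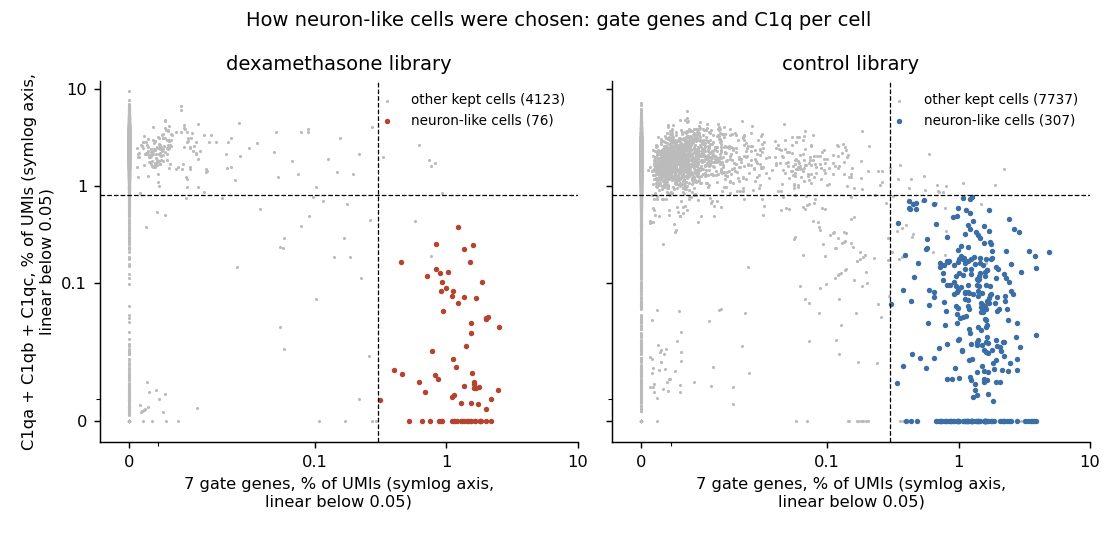
Each point is a kept cell of the dexamethasone library (left) or the control library (right), placed by the share of its UMIs from the 7 gate genes and from the 3 C1q genes. Dashed lines mark 0.3% and 0.8%. The 76 and 307 coloured cells form a cloud apart from the mass of C1q-carrying cells, and control cells reach closer to the C1q limit.

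Of the 6 markers that name the class, Neurod6 and Neurod1 took no part in the gate. Per 1000000 UMIs (CPM), Neurod6 gave 480.8 (Poisson interval 420.3 to 547.6) in dexamethasone neuron-like cells and 414.9 (380.7 to 451.3) in control ones, against 1.36 and 1.38 CPM among other kept cells. It was detected in 36 of 76 and 126 of 307 cells. Neurod1 stood at 389.8 and 459.3 CPM, against 1.15 and 2.52 CPM. Only 33 and 95 cells had a Neurod1 transcript. Both genes were chosen as markers with earlier results of these data known, so their levels are a description and not support for the label. Both are also among the excitatory genes used for grouping below. The inhibitory groups were formed from cells with 0 UMIs of them, so neither gene says anything of those cells. Transcripts that define other brain cells were nearly missing, with 1 and 3 UMIs of 13 endothelial and mural genes, 5 and 18 UMIs of 10 choroid plexus and ependyma genes, and 5 and 20 UMIs of 12 neutrophil and monocyte genes over all neuron-like cells. The oligodendrocyte lineage list summed to 67.8 and 64.3 CPM, close to the 67.6 and 75.5 CPM of the other kept cells. The astrocyte and radial glia list, which includes Fabp7, summed to 413.1 and 244.9 CPM, against 159.4 and 192.4 CPM.

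Neuron-like cells were a smaller share of the dexamethasone library, 1.81% of kept cells (Clopper-Pearson interval 1.43 to 2.26%), against 3.82% in the control (3.41 to 4.26%). The difference was -2.01 percentage points (-2.83 to -1.15). The flow sort and the gate set this share, so it describes what passed the sort and not the hippocampus. Depth moved with it. Neuron-like cells had a median of 5593 UMIs and 2223.5 genes in the dexamethasone library, against 2102 UMIs and 968 genes in the control, with ranges of 598 to 19869 and 501 to 28764 UMIs. Other kept cells had medians of 9030 and 7729 UMIs.

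Within each class of depth the intervals of both libraries overlapped, which does not show that the shares were alike. Under 1000 UMIs, 13 of 50 kept cells (26.0%) were neuron-like in the dexamethasone library, against 95 of 303 (31.4%) in the control. From 1000 to under 2000 UMIs the counts were 13 of 44 (29.5%) and 57 of 196 (29.1%). From 2000 to under 5000 UMIs they were 10 of 407 (2.46%) and 58 of 1274 (4.55%), and at 5000 UMIs or more 40 of 3698 (1.08%, 0.774 to 1.47%) and 97 of 6271 (1.55%, 1.26 to 1.88%). Restricting both counts to cells with at least 2000 UMIs left 1.22% of dexamethasone and 2.05% of control cells. These were 50 of the 76 dexamethasone and 155 of the 307 control neuron-like cells. The share of gate genes in the UMIs of cells with C1q at 0.8% or more was also lower in the dexamethasone library, at 0.00258% against 0.00534%. Without those of them that reached a gate share of 0.3% the values were 0.000883% and 0.00406%. The part of depth and of this background in the result was not tested. The libraries had 5 cell barcodes in common.

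**Figure D2:**
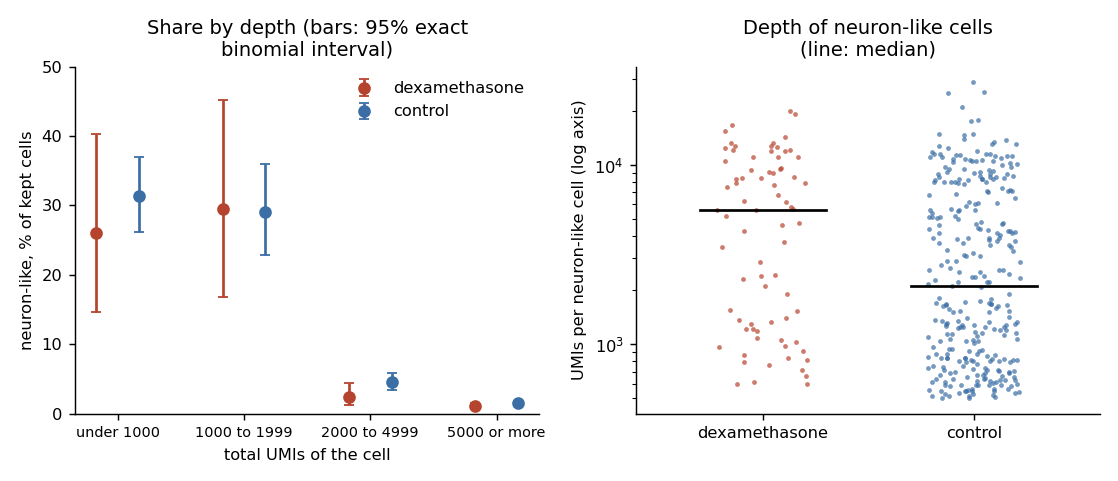
Left, the share of kept cells that were neuron-like in 4 classes of total UMIs, with exact 95% binomial intervals, dexamethasone left of control in each pair. Right, UMIs of each neuron-like cell on a log axis with the median as a line, at 5593 for dexamethasone and 2102 for control cells; the control cloud is densest at its shallow end.

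Most neuron-like cells carried either excitatory or inhibitory transcripts, and hardly any carried both. The excitatory genes used were Neurod1, Neurod2, Neurod6, the vesicular glutamate transporter genes Slc17a6 and Slc17a7, and Tbr1, a transcription factor of early pyramidal neurons. The inhibitory genes were Gad1, Gad2, the vesicular GABA transporter gene Slc32a1, Dlx1, Dlx2, Dlx5 and Dlx6, of which Dlx6 had 0 UMIs. To compare libraries of unequal depth, each cell was thinned to 1000 UMIs, which left 63 dexamethasone and 212 control cells and set aside 13 and 95 shallower ones. Then 54.0% of the dexamethasone cells (40.9 to 66.6%) and 45.3% of the control ones (38.5 to 52.2%) carried an excitatory transcript. Inhibitory transcripts were present in 22.2% (12.7 to 34.5%) and 20.8% (15.5 to 26.8%). Both kinds were found in 0 of 63 dexamethasone cells, with an upper bound of 5.69%, and in 1 of 212 control cells. Neither kind was found in 23.8% and 34.4%.

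For each of these shares the interval of the difference between libraries included 0. The difference of the dexamethasone library from the control was 8.69 points for excitatory transcripts (-11.3 to 28.2), 1.47 points for inhibitory ones (-14.1 to 19.0) and -10.6 points for neither (-27.3 to 8.15). These intervals run between the extremes of the separate bounds, so they are wide and do not show that the shares were alike. Without thinning, excitatory transcripts were in 65.8% and 58.0% of cells and inhibitory ones in 23.7% and 19.2%. The background was low. Among thinned cells with C1q at 0.8% or more, whose unthinned median depths were 9004.5 and 7816 UMIs, 0.316% and 0.187% carried an excitatory transcript and 0 of 3798 and 0.115% an inhibitory one. Of thinned globin-rich cells, 0 of 94 and 1 of 127 carried an excitatory transcript and 0 of either library an inhibitory one.

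Progenitor genes were less telling. After thinning, 77.8% (65.5 to 87.3%) of the dexamethasone and 65.1% (58.3 to 71.5%) of the control neuron-like cells carried a transcript of the progenitor list, a difference of 12.7 points (-5.96 to 29.0), while 34.8% and 36.6% of C1q-carrying cells did so too. The leading member was Hes6, which promotes neuronal differentiation, at 667.2 and 525.9 CPM. Over all neuron-like cells the unthinned share with a progenitor transcript was 86.8% and 77.2%.

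**Figure D3:**
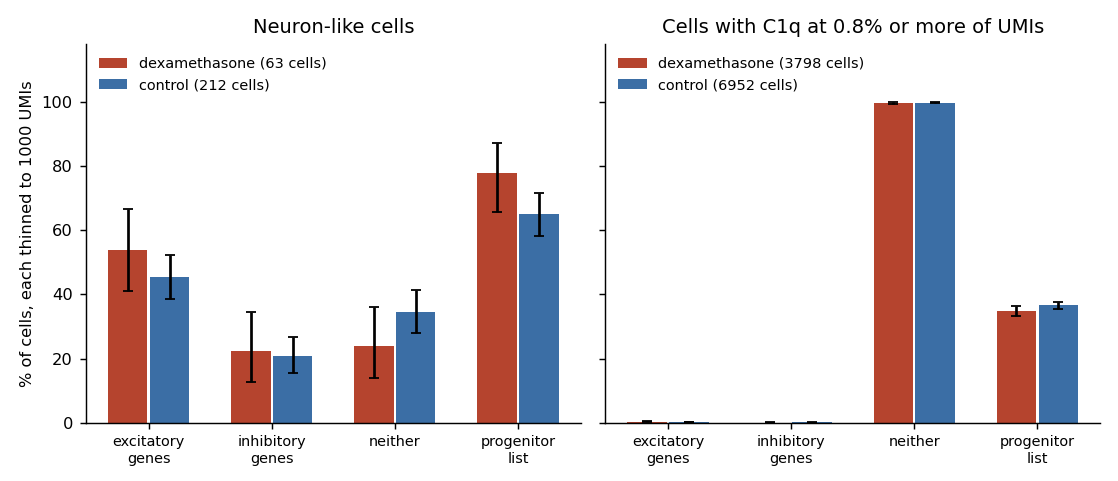
Percent of cells, each thinned to 1000 UMIs, with at least 1 UMI of the excitatory genes, of the inhibitory genes, of neither, or of the progenitor list, dexamethasone left of control, with exact 95% binomial intervals. Left, neuron-like cells (63 and 212), where the intervals of each pair overlap; right, cells with C1q at 0.8% or more of UMIs (3798 and 6952), of which under 1% carried the excitatory or inhibitory genes.

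The unthinned cells were then grouped by at least 2 UMIs of one of these gene sets and none of the other. The excitatory group held 43 dexamethasone and 140 control cells, and the inhibitory group 16 and 38. A further 1 and 4 cells carried both sets, 9 and 74 carried neither, and 7 and 51 had a single UMI of 1 set. The cells with neither were shallow, with a median of 910 and 814.5 UMIs, against 9309 and 7329.5 in the excitatory group and 3594 and 3707 in the inhibitory group. Of the 9 and 74 cells with neither, 7 and 47 lay under 1000 UMIs. The median share of gate genes per cell was 1.35% and 1.27% in excitatory cells, 1.31% and 1.56% in inhibitory cells, 1.43% and 1.44% in cells with neither and 0.909% and 1.23% in those with a single UMI.

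Genes that had no part in the gate or in the grouping were then compared. Of 22 further excitatory genes measured, 17 were higher in the excitatory than in the inhibitory group in both libraries and 4 were lower in both. Over all 6888 genes with at least 20 UMIs outside the gate and the definers, 34.2% were higher in the excitatory group in both libraries and 23.3% in the inhibitory group. Of 16 further inhibitory genes, 13 were higher in the inhibitory group in both libraries and 1, Meis2, was lower in both. The inhibitory groups held fewer UMIs, 57777 for dexamethasone and 134961 for control, against 394789 and 1006395 in the excitatory groups, so a count of 0 in them carries little weight. The exact interval of the ratio lay above 0 in both libraries for 9 of the 22 excitatory genes, beside 1.58% of all genes, and below 0 in both for 3. It lay below 0 in both for 8 of the 16 inhibitory genes, beside 1.26% of all genes, and above 0 in both for 1. Bhlhe22, a bHLH repressor present in excitatory cortical neurons, stood at 830.8 CPM in the excitatory group of the dexamethasone library and 908.2 CPM in that of the control, with 0 UMIs in both inhibitory groups. Zbtb18, a repressor needed for cortical neuron differentiation, stood at 701.6 and 718.4 CPM, against 69.2 and 81.5 CPM in the inhibitory groups. Lhx2, a LIM homeobox gene of the dorsal telencephalon, stood at 443.3 and 381.6 CPM, against 17.3 CPM and 0 UMIs. Emx1, which marks the dorsal telencephalon, stood at 93.7 and 118.2 CPM, with 0 UMIs in the inhibitory groups.

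Some genes listed as excitatory went the other way. Bcl11b stood at 121.6 and 59.6 CPM in the excitatory groups, against 415.4 and 214.9 CPM in the inhibitory groups. Mef2c was at 101.3 and 233.5 CPM, against 276.9 and 459.4 CPM. Lmo3 and Cux2 were the other 2, and Cux1 differed in direction between the libraries. Bcl11b and Mef2c encode transcription factors that are also known from cortical interneurons.

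Across all genes, those most unequal between the groups were led, beside the genes just named, by Pcp4, Rprm, Sema3c and Nrn1 on the excitatory side. Pcp4, a small calmodulin-binding protein of several hippocampal and cortical neurons, stood at 1360 CPM and 489.9 CPM in the excitatory groups of the dexamethasone and control libraries and had 0 UMIs in the inhibitory groups. Sema3c, a secreted guidance molecule, was at 281.2 and 239.5 CPM and Nrn1, which encodes neuritin, at 273.6 and 158.0 CPM, again with 0 UMIs on the other side. Fabp7, a fatty acid-binding protein of radial glia that persists in newborn neurons, was at 309.0 and 199.7 CPM, against 0 UMIs and 14.8 CPM. Gap43 is a gate gene, yet it was uneven too, at 1198 and 1111 CPM against 173.1 and 111.1 CPM.

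Of the 12 genes most unequal on the inhibitory side 5 were definers. Nxph1, a neurexin ligand, was at 173.1 and 163.0 CPM in the inhibitory groups of the dexamethasone and control libraries and Erbb4, the neuregulin receptor of migrating interneurons, at 103.8 and 155.6 CPM, both with 0 UMIs in the excitatory groups. Htr3a, a serotonin receptor subunit of interneurons from the caudal eminence, was at 86.5 and 133.4 CPM with 0 UMIs on the other side. Sox2, listed as a progenitor gene, was at 519.2 and 429.8 CPM, against 15.2 and 6.96 CPM. Lhx6, Npy and Sp8, further interneuron genes, had 0 UMIs in all 4 groups.

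Cck and Npas1 differed between the inhibitory groups of the libraries. Cck, the neuropeptide cholecystokinin, stood at 398.1 CPM in the 16 dexamethasone cells and 1600 CPM in the 38 control cells, a log2 ratio of -2.01 (-2.70 to -1.38). Npas1, a transcription factor of interneurons, stood at 34.6 and 237.1 CPM from 2 and 32 UMIs. Dlx1 stood at 934.6 and 1889 CPM (log2 ratio -1.02, -1.47 to -0.59), while Gad2 stood at 1056 and 703.9 CPM (0.58, 0.10 to 1.06). Over all neuron-like cells Cck stood at 311.4 and 332.2 CPM, but the groups went apart. Its ratio was 1.20 (0.83 to 1.57) within the excitatory groups, where the 117 dexamethasone UMIs lay in 8 cells. Without the Reln-marked cells described below, 46 dexamethasone UMIs remained over all neuron-like cells. Most of the 117 therefore lay in Reln-marked cells. Without these cells Cck stood at 111.9 and 276.5 CPM over the neuron-like cells (-1.31, -1.78 to -0.86).

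**Figure D4:**
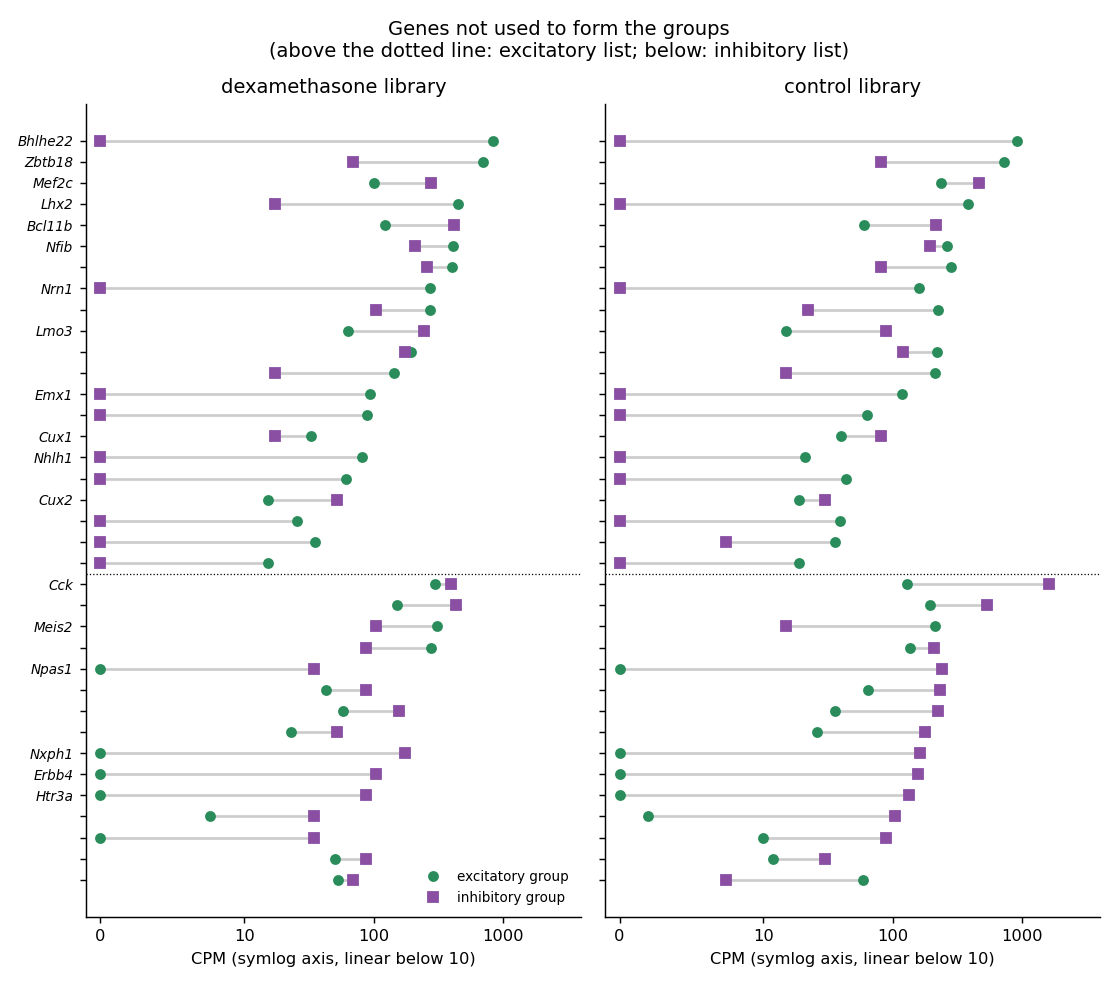
Levels of the excitatory-list genes (above the dotted line) and inhibitory-list genes (below it) that were not used to form the groups, in CPM on a symlog axis, with genes named in the text labelled, for the dexamethasone library (left) and the control library (right). Circles are the excitatory group (43 and 140 cells) and squares the inhibitory group (16 and 38 cells); 21 of the 22 measured excitatory-list genes and 15 of the 16 inhibitory-list genes are drawn, and most of each list lie higher in their own group in both libraries.

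A small set of cells carried reelin. A rule set after the values were seen, Reln with at least 1 of Tp73, Lhx1, Lhx5, Ebf1, Ebf3 and Nhlh2, marked 6 of 76 cells in the dexamethasone library (7.89%, 2.95 to 16.4%), against 12 of 307 in the control (3.91%, 2.04 to 6.73%). They held all Reln UMIs of dexamethasone and 95.1% of those of control neuron-like cells, and 12.9% and 3.95% of all their UMIs. The dexamethasone cells were deep, with a median of 9750.5 UMIs, against 2730.5 in the control. By the earlier grouping 5 and 6 of them were excitatory and 0 were inhibitory.

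Genes outside that rule were also unequal between these cells and the remaining neuron-like cells. Slc17a6, the vesicular glutamate transporter 2 gene, stood at 655.1 and 484.6 CPM in Reln-marked cells of the dexamethasone and control libraries, against 38.9 and 17.5 CPM in the remaining neuron-like cells. Chga, which encodes the granule protein chromogranin A, stood at 2227 and 1493 CPM, against 238.4 and 212.8 CPM. Emx2, a homeobox gene of the medial cortex, was at 393.0 and 348.9 CPM, against 41.4 and 31.1 CPM. Rspo3, a Wnt enhancer expressed in the cortical hem, was at 491.3 and 271.4 CPM, against 7.30 and 3.19 CPM. Cdkn1a, an inhibitor of cyclin-dependent kinases, was at 442.2 and 426.5 CPM, against 0 UMIs and 2.39 CPM. It was detected in only 3 of the 6 dexamethasone and 5 of the 12 control Reln-marked cells. Rspo3 and Cdkn1a are among the most unequal genes of this same comparison, so they are a description. Neurod6 and Meis2 were nearly missing, with Neurod6 at 32.8 CPM and 0 UMIs, against 547.4 and 431.9 CPM, and Meis2 at 0 UMIs in both, against 313.8 and 180.1 CPM.

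Set against all other kept cells, the neuron-like cells differed broadly, which the choice of cells by neuronal genes already implies, so these values are a description. Of 4924 genes with at least 20 CPM in neuron-like cells of both libraries, 916 (18.6%) were at least 4-fold higher in both. Outside the gate, the 20 highest had log2 ratios of 8.08 to 8.92 in the library where the ratio was smaller. Among them were Syt4, Flrt3, Tenm2, Gpr85, Stmn4, Actl6b, Bhlhe22, Runx1t1, Pou3f2, Dpysl3, Neurod6, Gpm6a, Nsg1, Pou3f1, Neurod2, Igsf3, Chga, Cd24 and Nexmif. Syt4, a synaptotagmin of dense-core vesicles, stood at 360.1 and 341.4 CPM in neuron-like cells of the dexamethasone and control libraries, against 0.742 and 0.616 CPM in other kept cells. Gpm6a, a membrane glycoprotein of growing neurites, stood at 631.2 and 607.8 CPM, against 1.32 and 2.04 CPM. Actl6b, the neuron-specific actin-related subunit of BAF chromatin remodelling complexes, stood at 101.7 and 123.2 CPM, against 0.287 and 0.308 CPM.

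Between the libraries most neuronal genes lay close together. Over the 7178 genes with at least 20 UMIs in neuron-like cells, the median log2 ratio of dexamethasone over control was 0.02. Of these genes 3745 were higher and 3433 lower, with 3.08% at least 2-fold higher and 6.53% at least 2-fold lower. Without cells over 3 times their library's median UMIs these shares were 6.23% and 3.95%, and by mean CPM per cell 9.06% and 10.7%. The gate genes stood almost level, as the rule itself makes likely, with Stmn2 at 3741 and 3855 CPM and Tubb3 at 4023 and 3750 CPM. Tuba1a, the main tubulin of newborn neurons, was at 16118 and 14538 CPM and Stmn1, which destabilises microtubules, at 11019 and 10116 CPM. Of 31 measured genes of the growth cone and cytoskeleton, 13 were higher and 18 lower, 0 of them 2-fold higher and 2 2-fold lower, with a median log2 ratio of -0.07. One of the 2 was Nefm, the medium neurofilament, at 31.8 and 69.7 CPM (-1.13, -2.03 to -0.34).

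Most presynaptic and adhesion genes were slightly higher in the dexamethasone cells, none by 2-fold. Among all 7178 measured genes 3745 were higher too, with a median of 0.02. Of 27 presynaptic genes 17 were higher and 10 lower, and 0 reached 2-fold in either direction, with a median of 0.12. The granins Chga and Chgb had the highest values, at 495.7 and 263.3 CPM (log2 ratio 0.91, 0.67 to 1.16) and at 122.9 and 63.5 CPM (0.95, 0.44 to 1.45). Without the Reln-marked cells the ratio of Chga was 0.16 (-0.18 to 0.50). Of 26 adhesion and guidance genes 20 were higher and 6 lower, 0 of them 2-fold, with a median of 0.28. Cd24, a surface glycoprotein of young neurons, was at 1324 and 1035 CPM (0.36, 0.22 to 0.49) and Ncam1, the neural cell adhesion molecule, at 423.6 and 339.9 CPM (0.32, 0.07 to 0.56). Epha5, an ephrin receptor, was lower, at 93.2 and 174.5 CPM (-0.90, -1.41 to -0.43).

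Receptor and channel genes were thinly covered. Of 15 measured glutamate receptor and postsynaptic genes 9 were higher and 6 lower, with a median of 0.17 and 1 past 2-fold each way. Gria2, the AMPA receptor subunit that limits calcium entry, was at 330.4 and 294.7 CPM and Grin2b, the early NMDA receptor subunit, at 186.4 and 163.0 CPM, and both intervals of the ratio included 0. Of 7 genes for GABA receptors and chloride carriers 2 were higher and 5 lower, with a median of -0.74 and 1 2-fold lower. That gene was Glra2, an embryonic glycine receptor subunit, at 12.7 and 38.3 CPM from 6 and 50 UMIs. Slc12a2, the chloride importer of immature neurons, was at 33.9 and 46.7 CPM (-0.46, -1.36 to 0.35), and Slc12a5, the exporter of mature neurons, had 1 and 0 UMIs. Of 9 voltage-gated channel genes 7 were higher, 0 of them 2-fold, and 2 lower. The 2 lower genes, named after their values were seen, were Scn1a with 2 and 19 UMIs and Kcnq3 with 4 and 24, both past 2-fold with intervals that included 0.

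Transcription factors of hippocampal and pyramidal identity were split, with more of them higher than lower in the dexamethasone cells. Of 13 neuronal transcription factors 9 were higher and 4 lower, 0 of them 2-fold, with a median of 0.22. Nfib, a nuclear factor needed for hippocampal development, was at 381.3 and 239.6 CPM (0.67, 0.40 to 0.94). Of 10 hippocampal field genes 6 were higher and 4 lower, with 1 2-fold higher and a median of 0.65. Zbtb20, a zinc finger factor that specifies hippocampal pyramidal fields, was at 542.3 and 312.3 CPM (0.80, 0.56 to 1.02), and its ratio was 0.57 (0.33 to 0.82) within the excitatory groups. Meis2, of the inhibitory list but higher in the excitatory group of both libraries, was at 273.3 and 173.0 CPM (0.66, 0.34 to 0.98). Pou3f1, a POU factor of pyramidal neurons, was lower, at 131.3 and 226.6 CPM (-0.79, -1.21 to -0.39).

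The definers of both neuron classes were split as well. Of the 6 excitatory definers 3 were higher and 3 lower, with Slc17a6 and Tbr1 past 2-fold, the second from 17 UMIs in each library. Without Reln-marked cells Tbr1 stood at 14.6 and 10.4 CPM. Neurod2 stood at 156.7 and 213.6 CPM (-0.45, -0.84 to -0.07). Of 5 measured inhibitory definers 2 were higher and 3 lower, 0 of them 2-fold, with a median of -0.37. Gad2 stood at 133.4 and 84.2 CPM (0.66, 0.19 to 1.12), a ratio that turned to -0.75 without cells over 3 times their library's median UMIs. Dlx1 stood at 114.4 and 213.6 CPM (-0.90, -1.35 to -0.48).

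The further excitatory, inhibitory and RNA-binding protein lists showed no common direction, while most progenitor genes were higher in the dexamethasone cells. Of the 22 further excitatory genes 11 were higher and 11 lower, with 3 2-fold higher, 1 2-fold lower and a median of 0.01. Nhlh1, a bHLH factor of newborn neurons, had the largest ratio of those with 50 UMIs or more, at 67.8 and 18.4 CPM (1.88, 1.07 to 2.71) from 10 and 16 cells, and its ratio was 1.22 (0.06 to 2.35) without Reln-marked cells. Of the 16 further inhibitory genes 7 were higher and 9 lower, with 1 and 2 past 2-fold and a median of -0.07. Of 16 neuronal RNA-binding protein genes 7 were higher and 9 lower, 1 past 2-fold each way, with a median of -0.11. Elavl2 stood out among them at 516.9 and 306.2 CPM (0.76, 0.52 to 0.99), although thinning to 1000 UMIs turned its ratio to -0.13. Of 11 progenitor genes 8 were higher and 3 lower, 1 of them 2-fold higher, with a median of 0.51. The median over all 7178 measured genes was 0.02, and 3745 of them were higher. Fabp7 was at 294.4 and 184.5 CPM (0.67, 0.36 to 0.98).

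**Figure D5:**
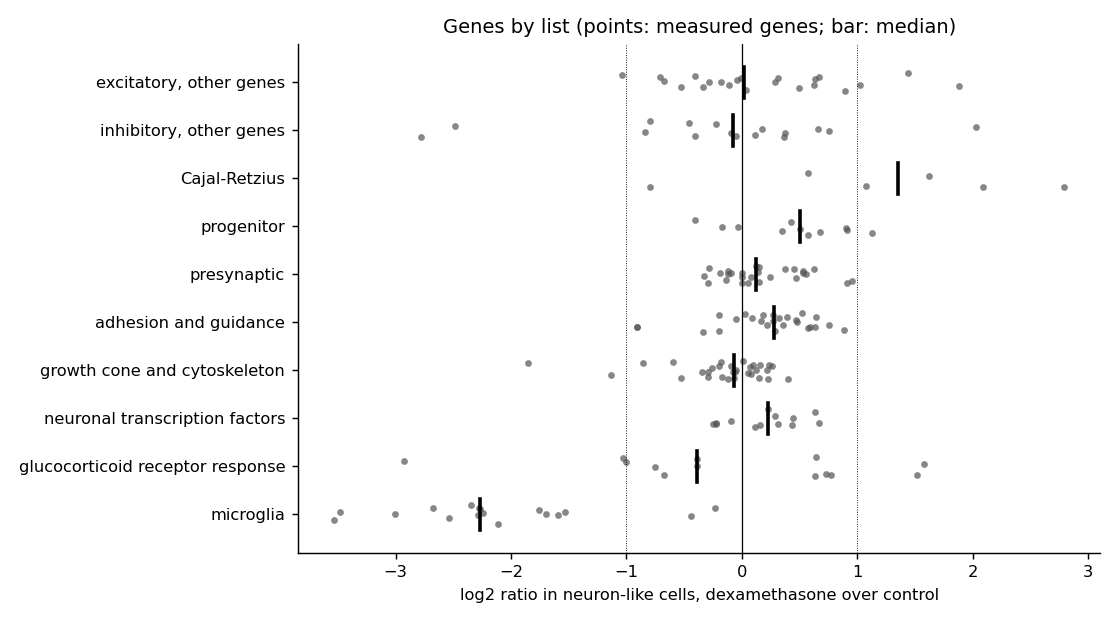
Log2 ratio of dexamethasone over control in neuron-like cells for each measured gene of 10 lists, with the list's median as a bar and dotted lines at 2-fold. A gene with 0 UMIs in a library stands at a floor of 3 counts. Most neuronal lists scatter around 0, the progenitor median lies at 0.51, the Cajal-Retzius median at 1.35, and all 17 microglia genes lie below 0.

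Cajal-Retzius genes were the neuronal list with the largest median ratio. Of 6 measured members 5 were higher and 1 lower, 4 of them by 2-fold or more, with a median of 1.35. Without the Reln-marked cells the median was -0.27, but it then rested on Calb2 and Nhlh2 only. The other members had too few UMIs left for a value. Members of this list had also set the rule that marked those cells, so that median tests nothing. Reln itself stood at 383.4 CPM (329.6 to 443.5) in dexamethasone cells and 124.8 CPM (106.3 to 145.5) in control cells. Its log2 ratio was 1.62 (1.31 to 1.93), and all 181 of its dexamethasone UMIs lay in 6 cells. Within Reln-marked cells, which were chosen by this gene, its level was 2964 and 3005 CPM. Nhlh2, a bHLH factor, was at 264.8 and 125.5 CPM (1.08, 0.73 to 1.42), and at 0.85 (0.29 to 1.39) without them. Slc17a6 was at 118.6 and 36.0 CPM (1.72, 1.14 to 2.31), and at 1.15 (0.12 to 2.15) without them.

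Slc17a6, Reln and Nhlh2 were among the 12 genes with the highest ratios under the naming rule, and so was Pcp4. Pcp4 was at 1174 and 505.2 CPM (1.22, 1.05 to 1.38), and at 523.1 and 407.2 CPM (0.36, 0.12 to 0.59) without those cells. Hmgb2, a chromatin protein of dividing and newborn cells, was at 292.3 and 75.01 CPM (1.96, 1.58 to 2.35), and 76 of its 138 dexamethasone UMIs lay in 1 cell. Kcnk2, a background potassium channel, was at 161.0 and 73.5 CPM (1.13, 0.68 to 1.58), and its ratio was 0.67 (0.04 to 1.28) without Reln-marked cells. Cxxc5, a Wnt and BMP pathway regulator, was at 108.0 and 43.6 CPM, and Fxyd6, a sodium pump modulator, at 112.3 and 52.8 CPM. The remaining 4, Rps19l2, Ppial4d, Grcc10 and Atp5md, were higher in cells with C1q at 0.8% or more of the same libraries too, with log2 ratios of 1.75, 1.39, 1.02 and 0.83 there against 1.49, 1.30, 1.27 and 1.24 in neuron-like cells. Counts of Rps19l2 and Ppial4d are uncertain, since reads can match near-identical gene copies.

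The 12 genes with the lowest ratios were all abundant in cells with C1q at 0.8% or more, where they stood at 929.2 to 6828 CPM in the dexamethasone library and 974.0 to 4817 CPM in the control. Lyve1, a hyaluronan receptor of border-associated macrophages, stood at 8.47 and 107.2 CPM (-3.66, -5.56 to -2.27). Aif1, which encodes the microglial protein Iba1, stood at 38.1 and 306.9 CPM (-3.01, -3.78 to -2.33), and Tyrobp, the adaptor of Trem2, at 72.0 and 367.4 CPM (-2.35, -2.90 to -1.85). Fcgrt, Ctsz, Sparc, Arpc1b, Cyba, Tmem176a, Tmem176b and RT1-CE10 had ratios between -3.54 and -2.36, where RT1-CE10 is a class I MHC gene with close copies and an uncertain count. C1qc had a ratio of -2.54 and is one of the genes of the rule.

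Of 17 measured microglia genes, 17 were lower and 15 of them at least 2-fold, beside the 6.53% of all genes that were 2-fold lower. Summed, their list gave 1121 CPM in dexamethasone and 5132 CPM in control neuron-like cells (log2 ratio -2.20, -2.33 to -2.07), against 58469 and 59668 CPM among other kept cells. Over cells with C1q at 0.8% or more the median ratio of the list was -0.12. The C1q genes of the rule belong to this list. The 10 cells with most such UMIs held 30.6% of them among dexamethasone and 57.8% among control cells. Without those 10 cells the list stood at 1019 and 2463 CPM. The list exceeded 1% of UMIs in 1 of 76 and 30 of 307 cells, and its median per cell was 0.110% and 0.283%. P2ry12 and Tmem119, which define microglia, had 1 UMI each in the dexamethasone cells and 8 and 9 in the control. Globin transcripts were lower too, at 218.2 and 496.0 CPM, and 3 of 3 measured genes of border-associated macrophages were at least 2-fold lower. The part of these transcripts in the other differences was not tested.

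Mitochondrially encoded transcripts were lower, at 1.96% of dexamethasone and 4.83% of control neuron-like UMIs (log2 ratio -1.30, -1.33 to -1.27), and 13 of 13 genes had ratios below 0. The other kept cells differed in the same direction, with 2.98% and 5.74% (log2 ratio -0.95), but not the shallow ones, which had 6.67% and 5.33% under 1000 UMIs and 7.39% and 4.38% from 1000 to under 2000. The ratio was -1.30 within the excitatory groups, -1.50 within the inhibitory groups and -1.28 in cells with at least 2000 UMIs. Under 1000 UMIs the shares in neuron-like cells were 6.19% and 8.57%, and from 2000 to under 5000 UMIs 2.09% and 5.63%. Ribosomal protein genes took nearly equal shares, 12.8% and 12.5%.

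Genes that respond to the glucocorticoid receptor, which binds dexamethasone, did not share a direction. Of 13 measured members 6 were higher and 7 lower, with 2 at least 2-fold higher, 3 at least 2-fold lower and a median of -0.39. Tsc22d3, which encodes the glucocorticoid-induced leucine zipper, was at 116.5 and 75.01 CPM (0.64, 0.13 to 1.13), chosen for naming after its value was seen. Fkbp5, a chaperone induced by the receptor and also chosen afterwards, was at 19.1 and 32.1 CPM (-0.75, -1.98 to 0.31). Ddit4, an inhibitor of mTOR signalling, was at 177.9 and 114.1 CPM (0.64, 0.24 to 1.04). Cdkn1c, a cell cycle inhibitor, was at 233.0 and 136.2 CPM (0.77, 0.42 to 1.12), and at 80.3 and 82.1 CPM (-0.03, -0.64 to 0.55) without Reln-marked cells. Cdkn1a, at 57.2 and 19.1 CPM, had all 27 of its dexamethasone UMIs in Reln-marked cells. Nr3c1, the receptor gene itself, had 1 and 7 UMIs. The steroid receptor and metabolism list had 3 higher and 3 lower of 6 members, with the chaperone gene Hsp90ab1 at 3489 and 3932 CPM (-0.17, -0.25 to -0.09).

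Few stress and cell cycle genes were measured. Of 7 immediate-early and dissociation stress genes 5 were higher and 2 lower, 0 of them 2-fold, with a median of 0.11. Of 7 apoptosis and injury genes 5 were higher and 2 lower, with Bax, which permeabilises mitochondria in dying cells, at 391.9 and 364.4 CPM (0.11, -0.15 to 0.35). Hmox1, the haem oxygenase 1 gene, had 0 and 50 UMIs, a log2 ratio of -2.59 or lower with the dexamethasone library at a floor of 3 counts. A transcript of the mitotic list was found in 34.2% of dexamethasone and 25.1% of control neuron-like cells. After thinning to 1000 UMIs these shares were 14.3% and 10.4%. Of 5 measured members 5 were higher, 4 of them by 2-fold or more, beside 3.08% of all genes. Yet 1 dexamethasone cell held 96 of the 139 UMIs of the list, and without the 2 cells with most of them 36 and 122 UMIs remained. At least 5 mitotic genes were detected in 1 dexamethasone and 3 control cells.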

How the data were processed

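Microglia had been sorted from pooled hippocampi and captured in droplets with barcoded beads, per the labels' protocols. The submitters' processing notes name Cell Ranger 7.0.0 and the assembly Rnor_6.0. The deposited values are raw UMI counts per gene and barcode for 32623 features, and features that share a symbol were summed here. Totals were 42611920 UMIs over 4328 barcodes for dexamethasone and 69940778 over 8342 for control. The count limits the precision, and low genes carry wide intervals. Neuron-like cells were chosen by the rule above. Their 472091 and 1306428 UMIs were summed per library and scaled to CPM by those totals, with exact Poisson intervals for levels, exact Clopper-Pearson intervals for shares and exact conditional binomial intervals for ratios. The interval of a difference of 2 shares runs between the extremes of their separate bounds. Genes with 20 or more UMIs in all were called measured, and for a ratio a count of 0 was set to 3. Shares were compared in cells thinned without replacement to 1000 UMIs. Python 3.11.15, numpy 2.4.6 and scipy 1.17.1 were used, and the procedures were tested on simulated data.

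The members, the 30 gene lists and the rules were chosen with earlier results of these data known. Of 550 list entries, 23 had no match by symbol. Named were the gate genes, the class markers, the excitatory and inhibitory definers, and the 20 highest genes over other cells with at least 100 CPM in each library. For dexamethasone over control they were the 12 highest and 12 lowest genes with 100 or more UMIs, 50 CPM or more on one side, and one sign in pooled sums, per-cell means, thinned cells and cells with at least 2000 UMIs. Each neuronal or response list added its 2 most abundant members and that of largest ratio with at least 50 UMIs. Clone-type names were set aside. A few genes met by these rules are not reported here. Other genes named were chosen after their values were seen. Alternatives covered the gate, the C1q limit, depth, thinning, scaling and cell weighting. No annotation of Rnor_6.0 was used, so genes have no coordinates of that build.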

Additional observations from a re-analysis of the deposited data

Results flagged for a closer look

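For 6 genes of the naming rule, the 2 libraries differed in opposite directions in neuron-like cells and in cells with C1q at 0.8% or more of UMIs. The difference between the 2 kinds of cell was not tested, since each library is a single sample. Reln had a log2 ratio of dexamethasone over control of 1.62 in neuron-like cells and -0.79 in C1q cells, Pcp4 one of 1.22 and -2.23, and Nhlh2 one of 1.08 and -2.58. In C1q cells these genes stood under 4 CPM, and without Reln-marked cells the ratio in neuron-like cells was 0.36 for Pcp4 and 0.85 for Nhlh2. RT1-CE10, with close copies and an uncertain count, had -3.54 in neuron-like cells and 0.07 in C1q cells, C1qc, a gene of the rule, -2.54 and 0.50, and Tyrobp -2.35 and 0.13.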

How the results depend on the processing

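The share of neuron-like cells in the dexamethasone library lay below the control under all 10 alternatives, and the difference of -2.01 points shrank to -0.836 with at least 2000 UMIs per cell. The 3.08% of genes at least 2-fold higher became 9.06% by mean CPM per cell, 5.26% after thinning, 6.23% without cells over 3 times the median UMIs and 0.831% with at least 100 UMIs per gene. The 6.53% at least 2-fold lower became 10.7% by per-cell means, 3.95% without cells over 3 times the median and 1.92% with at least 100 UMIs. The mitochondrial log2 ratio of -1.30 became -1.21 by per-cell means, -1.41 after thinning, -1.66 without cells over 3 times the median and -1.34 with a gate of 1%. The microglia list at -2.20 became -1.37, -1.31 and -1.87 under the first 3 of these, -2.36 with at least 2000 UMIs, -1.19 with C1q under 0.4% and -2.44 in the excitatory group. Without cells over 3 times the median, ribosomal protein genes turned to -0.019 and Gad2 to -0.75. Stmn1 turned to -0.000356 by per-cell means, and Elavl2 to -0.13 and Cdkn1c to -0.93 after thinning. Without Reln-marked cells the Cajal-Retzius median, then resting on Calb2 and Nhlh2 only, turned to -0.27 and Cdkn1c to -0.032. The restrictions to cells without Reln marks and to the excitatory group were chosen after seeing the data. The cause of these turns was not tested. Genes with under 20 UMIs left under an alternative gave no value. Leaving out a replicate could not be done with 1 library per group. No paired analysis was possible because each group has 1 library and no result comes from a test.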
